A study of Homo sapiens with 16 samples.

Results

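The genes of the matrix metalloproteinases (MMP), the ADAM and ADAMTS proteinases, the ADAMTS-like (ADAMTSL) proteins and the tissue inhibitors of metalloproteinases (TIMP) were taken from the count table of a YEATS2 knockdown experiment by their symbols. A row was a member when its symbol began with MMP, ADAM or TIMP followed by a digit, or with ADAMTS. This rule found 28 of the 12676 genes in the table. They were 8 MMP genes, 9 ADAM genes, 5 ADAMTS genes, 3 ADAMTSL genes, 2 TIMP genes and the antisense gene MMP24-AS1.

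The cells were H1299, a line from a human lung carcinoma of the non-small cell type. YEATS2 is a reader of histone acetylation and a subunit of the ATAC acetyltransferase complex, and the comparison asks which transcripts change when it is depleted. The 2 shCtrl libraries came from cells infected with a lentiviral pLKO vector carrying a non-targeting shRNA (shNT), and the 2 shYEATS2 libraries from cells infected with a pLKO vector against YEATS2. All cells were infected with 8 µg/ml polybrene, received 2 µg/ml puromycin 48 h later and were kept under selection for 4 to 7 days by the labels, while the study's methods give a shorter selection. A single YEATS2 shRNA was used in these libraries, so an effect of that shRNA on other transcripts cannot be told apart from an effect of YEATS2 loss. The study calls the replicates of a group independent biological replicates.

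Each library held between 34718921 and 39417787 counted reads, so that counting error was small for most of the genes described here. The targeted gene followed its labels: YEATS2 had scaled counts of 4482 and 4104 in the shCtrl libraries and 665 and 673 in the shYEATS2 libraries, a log2 fold change of -2.68 ± 0.10 (SE). Scaled counts here are reads corrected for library size and composition, with replicates 1 and 2 of a group always given in that order. KRT8, KRT18 and VIM, which H1299 expresses, were read in every library. None of the fixed markers of blood, endothelial, fibroblast or alveolar cells was among the genes analysed, and neither were the epithelial genes EPCAM and CDH1. Since the libraries are bulk RNA, fewer cells of a kind and less RNA per cell cannot be told apart.

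Metalloproteinases of these families cut extracellular matrix and cell surface proteins with a zinc ion held in the active site. MMPs degrade collagens and other matrix proteins, membrane-anchored ADAMs shed the outer parts of growth factors, receptors and adhesion molecules, and secreted ADAMTS enzymes cut proteoglycans and procollagens. TIMPs bind the active site and block it. In lung tumours these genes are best known for matrix turnover and invasion, and for the release of growth factors that act on the cell that shed them or on its neighbours. Some members keep the fold but have lost the catalytic site and act in adhesion, and the ADAMTSL proteins lack the proteinase domain altogether.

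The zinc-binding motif of this enzyme class divides the members by what their proteins can do. A search of the translated canonical transcripts (GENCODE 44 on GRCh37) found it in 18 of the 27 members with a coding transcript. It was not found in ADAM11, ADAM22, ADAM23, ADAMTSL3, ADAMTSL4, ADAMTSL5, TIMP1, TIMP2 or the short reading frame of MMP24-AS1. The coding sequence of the motif is shown for the enzymes on which the results turn, 5′ to 3′ on the coding strand, with the codons of the fixed motif residues in capitals:
MMP2: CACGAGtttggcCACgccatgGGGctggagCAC
MMP14: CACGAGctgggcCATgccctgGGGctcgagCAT
MMP15: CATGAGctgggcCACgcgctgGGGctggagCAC
MMP24: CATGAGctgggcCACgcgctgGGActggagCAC
ADAM10: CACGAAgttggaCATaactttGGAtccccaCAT
ADAM17: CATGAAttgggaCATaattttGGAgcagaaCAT
ADAM19: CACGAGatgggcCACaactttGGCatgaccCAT
ADAMTS20: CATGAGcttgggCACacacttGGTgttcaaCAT
The first 2 groups of capitals and the last encode the zinc-binding histidines and the catalytic glutamate, and the remaining capital codon encodes a glycine. In MMP2 the site lies in exon 8 of 13 (chr16:55525739-55525771, plus strand, GRCh37) and in MMP14 in exon 5 of 10 (chr14:23312492-23312524, plus strand). In ADAM17 it lies in exon 11 of 19 (chr2:9650207-9650239, minus strand) and in ADAM19 in exon 11 of 23 (chr5:156932742-156932774, minus strand), whereas in ADAM10 and ADAMTS20 an intron splits it. The transmembrane MMPs MMP14, MMP15 and MMP24 encode the same residues over these 11 codons, with 5 base differences between MMP14 and MMP15 and 1 between MMP15 and MMP24. MMP16 encodes the same residues as well. Scaled counts of MMP14 and MMP16 lay lower in shYEATS2 cells, and those of MMP15 and MMP24 lay higher. However, MMP15 and MMP24 entered the table through their shYEATS2 counts alone, as described below, so their direction was largely set by the listing.

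Of the 28 members, 6 were called higher in shYEATS2 than in shCtrl cells and 1 was called lower, at a false discovery rate (FDR) under 0.01. The FDR is the Benjamini-Hochberg adjusted p of edgeR's quasi-likelihood test over all 12676 genes, of which 12.9% were called higher and 12.5% lower. ADAM17, ADAM19, ADAMTS20, MMP2, TIMP1 and TIMP2 were the 6 called higher, MMP14 was the one called lower, and 21 members were not called. Both shYEATS2 libraries lay above both shCtrl libraries for 19 members, against 39.7% of all genes, and below them for 5 members, against 39.8% of all genes. For the remaining 4 members (ADAM15, ADAM23, ADAMTS3 and MMP1) the groups overlapped. The 28 members had log2 fold changes from -0.91 to 1.85 and a median of 0.56, beside -0.0019 over all genes. At an unadjusted p under 0.05, 17 members lay higher and 3 lower, beside 28.7% and 27.8% of all genes.

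**Figure D1:**
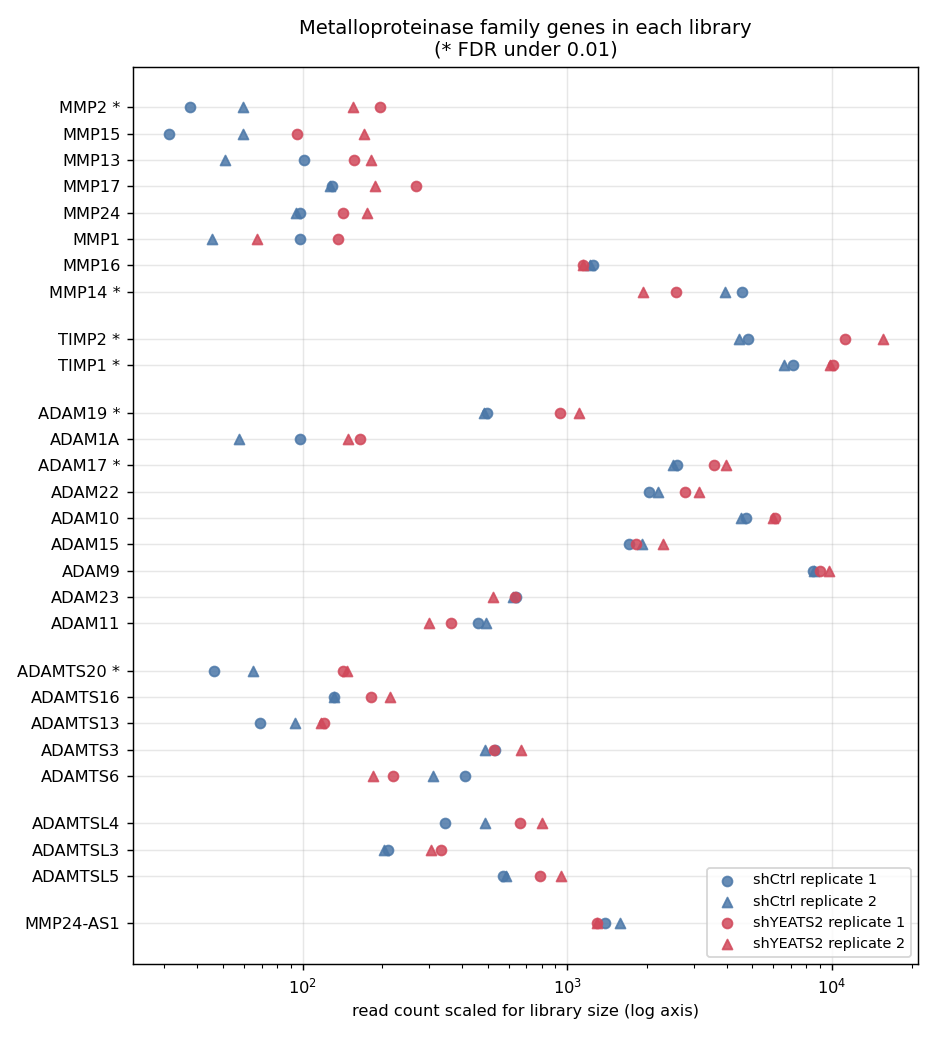
Scaled read counts (log axis) of the 28 genes in the 2 shCtrl libraries (blue) and the 2 shYEATS2 libraries (red), with circles for replicate 1 and triangles for replicate 2, grouped by family, and a star on each gene with an FDR under 0.01. The red symbols lie to the right of both blue symbols for 19 genes and to the left for 5, and MMP14 is the only starred gene that lies to the left. Of the 28 genes, 8 are listed through shYEATS2 libraries alone, which bears on the count of 19.

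The listing rule of the table bears on these counts. It keeps genes with over 100 reads in at least 1 library. Of the 28 members, 8 (28.6%) passed that limit in shYEATS2 libraries alone, against 695 (5.48%) of all genes: ADAM1A, ADAMTS13, ADAMTS20, MMP1, MMP2, MMP13, MMP15 and MMP24. No member passed it in shCtrl libraries alone, as 167 genes did. Genes listed only through shYEATS2 libraries had to have their highest read count there, so their direction was largely set by the listing. The rule fixes neither the size of a change nor a separation of the groups, and MMP1, which is among the 8, overlapped. Members low in both groups are not analysed here. Among the other 20 members 4 were called higher and 1 lower, beside 11.9% and 12.9% of the corresponding 11814 genes. The median log2 fold change was 0.43 for these 20 members and -0.027 for those genes. The annotation holds 71 protein-coding genes of these families, of which 26 are listed (8 of 23 MMP, 8 of 20 ADAM, 5 of 19 ADAMTS, 3 of 5 ADAMTSL and 2 of 4 TIMP genes). The pseudogene ADAM1A and MMP24-AS1 complete the 28. The counts above therefore describe listed genes and not the families as a whole.

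The choice of scaling also bears on the direction of weak changes. With total counts in place of TMM factors the all-gene median, on the log2 scale, moved from -0.0019 to 0.12, and the share of calls that were higher moved from 50.8% to 67.0%. Under that scaling 11 members were called higher and 1 lower. The log2 fold change of MMP16 was -0.11 with TMM and 0.01 with total counts, and no other member changed sign between these scalings.

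MMP2 encodes gelatinase A, which cuts denatured collagen and basement membrane collagen. It had scaled counts of 37.7 and 59.7 in shCtrl cells and 197 and 155 in shYEATS2 cells, so every knockdown library lay well above both controls. Its mean was 3.61-fold higher, at 176 ± 29.6 against 48.7 ± 15.6 (SD, n = 2), and its log2 fold change of 1.85 ± 0.29 (SE) was the largest of the 28 members (adjusted p = 0.0034). MMP2 is also one of the genes listed through shYEATS2 libraries alone, so that its direction was largely set by the listing. It remained a low transcript in both groups. Without shCtrl replicate 1, in which it was lowest, the log2 fold change was 1.55 and the adjusted p was 0.0111, above the limit of 0.01 and the highest of 13 alternatives, whose lowest was 9.8e-09.

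MMP14 encodes MT1-MMP, a transmembrane collagenase that also activates the MMP2 proenzyme on the cell surface. Its scaled counts were 4563 and 3929 in shCtrl cells and 2571 and 1934 in shYEATS2 cells. The groups did not overlap, and the mean was 1.88-fold lower after knockdown, at 2253 ± 450.4 against 4246 ± 448 (SD, n = 2). The log2 fold change was -0.91 ± 0.15 (SE), with an adjusted p of 0.0045. Leaving out shCtrl replicate 1 gave a log2 fold change of -0.81 and an adjusted p of 0.0104, just above the limit and the highest of the alternatives (lowest 2.8e-07). MMP14 was the only member called lower, and the MMP gene with the highest count in every library.

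Of the other transmembrane MMPs, MMP16 lay slightly below its controls, the direction of MMP14, while MMP15 and MMP24 lay above theirs. MMP15 (MT2-MMP) was measured at 31.2 and 59.7 in shCtrl cells and 95.3 and 170 in shYEATS2 cells. Its log2 fold change of 1.55 ± 0.41 had an adjusted p of 0.0194 and was not called, with replicates of each group nearly 2-fold apart. MMP24 (MT5-MMP) had 97.9 and 94.4 in shCtrl cells and 142 and 175 in shYEATS2 cells, with a log2 fold change of 0.72 ± 0.21 (adjusted p = 0.0279). MMP16 (MT3-MMP) stayed within a narrow range, at 1251 and 1215 in shCtrl cells and 1148 and 1145 in shYEATS2 cells (adjusted p = 0.396). MMP17, whose protein is tethered to the membrane by a lipid anchor, had 129 and 127 in shCtrl cells and 268 and 188 in shYEATS2 cells (adjusted p = 0.0212). None of these 4 membrane-anchored MMPs was called, and MMP15 and MMP24 are listed through shYEATS2 libraries alone.

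The interstitial collagenases MMP1 and MMP13, which cut fibrillar collagen, lie in the same cluster of MMP genes on chromosome 11 and were both read at low levels. MMP13 was measured at 101 and 51.0 in shCtrl cells and 156 and 181 in shYEATS2 cells, and its log2 fold change of 1.15 ± 0.32 did not pass the test (adjusted p = 0.0251). MMP1 overlapped between the groups, at 97.9 and 45.6 in shCtrl cells and 136 and 67.2 in shYEATS2 cells. Its fitted log2 fold change of 0.49 had an SE of 0.45, and it turned to -0.09 when shYEATS2 replicate 1 was left out. In both collagenases shCtrl replicate 1 had the higher of the control counts.

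Both listed inhibitors rose. TIMP2, which inhibits MMPs and also bridges MT1-MMP to the MMP2 proenzyme, lies on chromosome 17 (chr17:76849059-76921469, minus strand, GRCh37). It had 4790 and 4435 scaled counts in shCtrl cells and 11174 and 15528 in shYEATS2 cells. Its mean was 2.89-fold higher, at 13351 ± 3079 against 4612 ± 251 (SD, n = 2), with a log2 fold change of 1.53 ± 0.16 and an adjusted p of 0.0013. The shYEATS2 replicates differed from each other, but the lower of them was still over 2-fold above the higher control. TIMP1, a secreted inhibitor that blocks most soluble MMPs and only weakly the transmembrane ones, lies on the X chromosome (chrX:47441807-47446188, plus strand, GRCh37) and had 7084 and 6596 in shCtrl cells and 10098 and 9815 in shYEATS2 cells. Its increase was smaller and tighter, 1.46-fold with a log2 fold change of 0.54 ± 0.09 and an adjusted p of 0.0047. The call for TIMP2 held in each fit that left out a library, while that for TIMP1 was lost without shCtrl replicate 1 (adjusted p = 0.0232) and without shCtrl replicate 2 (adjusted p = 0.0429, the highest of its alternatives, with 3.1e-05 the lowest).

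**Figure D2:**
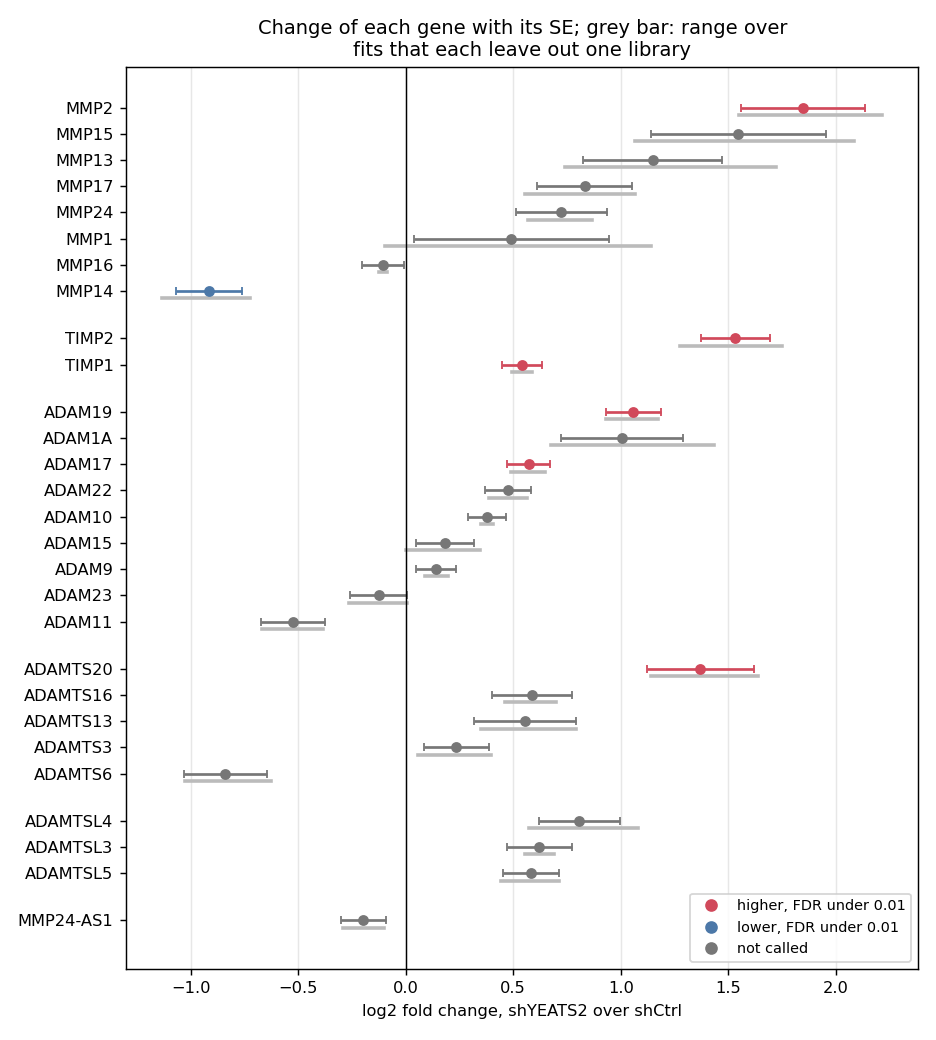
Log2 fold change of shYEATS2 over shCtrl for the 28 genes, with its SE as error bars; red points were called higher and blue points lower at an FDR under 0.01, grey points were not called, and the grey bar under each point spans the fits that each left out one library. MMP2 (1.85), MMP15 (1.55) and TIMP2 (1.53) have the highest values and MMP14 (-0.91) the lowest, and the bars of MMP1 and ADAM23 cross 0. MMP2 and MMP15 are listed through shYEATS2 libraries alone.

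Because MMP2, MMP14 and TIMP2 act in one complex at the cell surface, their levels were compared per length. Scaled reads were divided by the length of the canonical transcript in kilobases (kb), and the resulting levels were set side by side within each library. TIMP2 and MMP14 were close to each other in shCtrl cells, with TIMP2 over MMP14 at 1.06 and 1.14. In shYEATS2 cells the same ratio was 4.40 and 8.13, so the groups did not overlap. MMP2 stood at 0.00869 and 0.0160 of the MMP14 level in shCtrl cells and at 0.0805 and 0.0842 of it in shYEATS2 cells. As MMP2 is listed through shYEATS2 libraries alone, the direction of its part in this rise was largely set by the listing. TIMP2 over TIMP1 was 0.142 in both shCtrl libraries and 0.233 and 0.333 in the shYEATS2 libraries. These ratios follow from the changes of the single genes and were not tested separately.

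**Figure D3:**
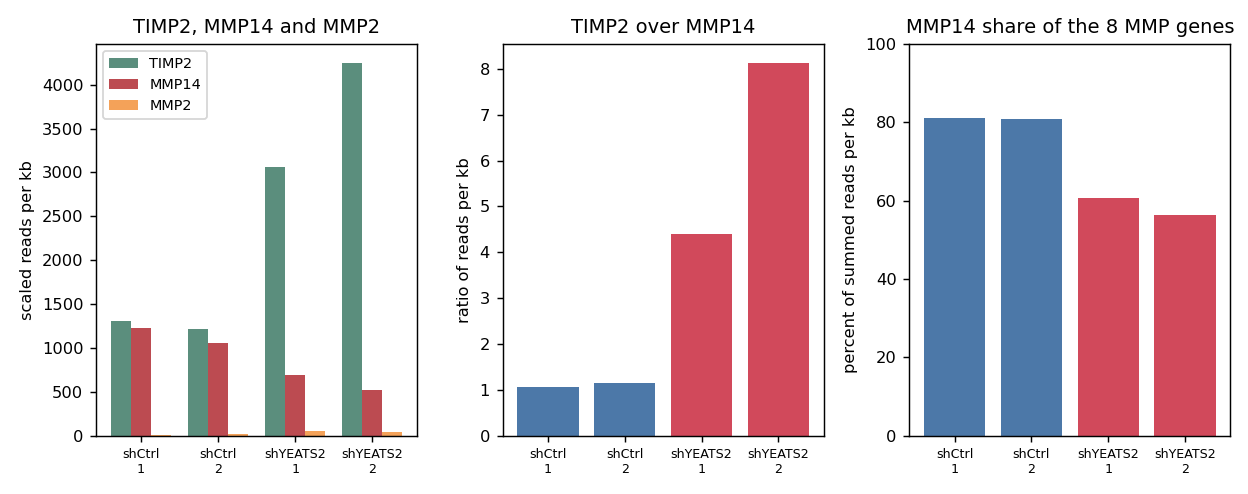
Left, scaled reads per kb of transcript of TIMP2, MMP14 and MMP2 in each of the 4 libraries; middle, the ratio of TIMP2 to MMP14; right, MMP14 as a percentage of the summed reads per kb of the 8 MMP genes, with shCtrl libraries in blue and shYEATS2 libraries in red. TIMP2 over MMP14 is 1.06 and 1.14 in the shCtrl libraries and 4.40 and 8.13 in the shYEATS2 libraries, and MMP2 is the smallest bar in every library. MMP1, MMP2, MMP13, MMP15 and MMP24 are listed through shYEATS2 libraries alone, which bears on the right panel.

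Summed over families the same per-length scale shows where the transcripts lie. The 8 MMP genes together had 1523 and 1315 reads per kb in shCtrl cells and 1144 and 927 in shYEATS2 cells. MMP14 alone made up 81.0% and 80.8% of that sum in shCtrl cells and 60.7% and 56.4% in shYEATS2 cells. However, MMP1, MMP2, MMP13, MMP15 and MMP24 are listed through shYEATS2 libraries alone. The part of the sum outside MMP14 was thus selected to be larger in shYEATS2 cells, and part of the fall in share comes from the listing. The 2 TIMP genes summed to 10524 and 9791 in shCtrl cells and to 16191 and 17015 in shYEATS2 cells. TIMP over MMP levels were thus 6.91 and 7.45 in the shCtrl libraries and 14.2 and 18.4 in the shYEATS2 libraries, with TIMP1 and MMP14 the main terms. The ADAM genes summed to 4186 and 4237 in shCtrl cells and 4859 and 5302 in shYEATS2 cells, and the ADAMTS genes to 191 and 178 against 201 and 225. ADAM1A, ADAMTS13 and ADAMTS20 in these sums are listed through shYEATS2 libraries alone. The small difference of the ADAMTS sums is therefore not read as a rise of that family. Transcript levels give no measure of the activity of these enzymes or of their inhibition.

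The order of the members by level was led by TIMP1 in both groups, at 8895 reads per kb in shCtrl cells and 12947 in shYEATS2 cells. It was followed in shCtrl cells by ADAM9 (2060), TIMP2 (1263) and MMP14 (1147), and TIMP2 and MMP14 were too close to separate by their spread over libraries. In shYEATS2 cells TIMP2 (3656) stood above ADAM9 (2273), ADAM17 came next at 861, and MMP14 stood at 609. ADAMTS20 was the lowest member in both groups, at 8.76 and 22.7 reads per kb. With the length of all annotated exons in place of the canonical transcript, MMP14 ranked second in shCtrl cells and ADAM10 stood above ADAM17, so that these orders depend on the length used.

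**Figure D4:**
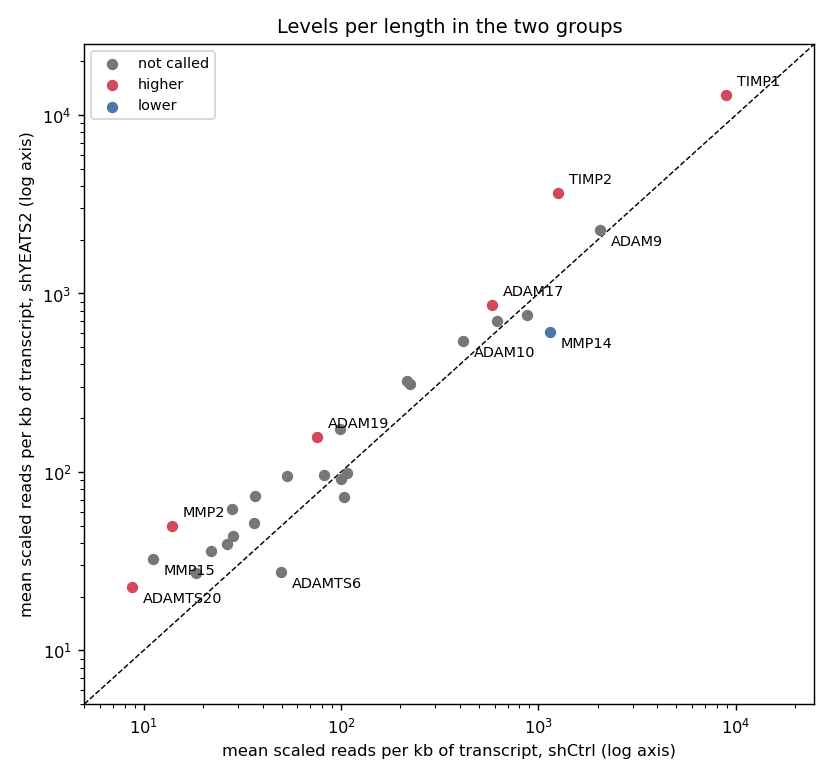
Mean scaled reads per kb of canonical transcript in shCtrl cells (x) and shYEATS2 cells (y), both on log axes, for the 28 genes; the dashed line marks equal levels, and colours mark the calls at an FDR under 0.01. TIMP1 lies at the top in both groups, TIMP2 lies furthest above the line among the abundant genes, and MMP14 lies below it.

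Among the ADAM sheddases, ADAM17 and ADAM19 were called higher. ADAM17, also called TACE, releases tumour necrosis factor and several ligands of the epidermal growth factor receptor. It had 2587 and 2504 scaled counts in shCtrl cells and 3577 and 3986 in shYEATS2 cells, a log2 fold change of 0.57 ± 0.10 (1.49-fold, adjusted p = 0.0051). The groups were well apart, but the call was lost without shCtrl replicate 1 (adjusted p = 0.0245), without shCtrl replicate 2 (adjusted p = 0.0304) and without shYEATS2 replicate 2 (adjusted p = 0.0117), in a range from 3.0e-05 to 0.0304 over its alternatives. ADAM19 (meltrin beta), a sheddase of neuregulins, had 498 and 483 in shCtrl cells and 936 and 1107 in shYEATS2 cells. Its log2 fold change of 1.06 ± 0.13 (2.08-fold, adjusted p = 0.0016) passed the test under all 13 alternatives that were run for single genes. Part of the exon sequence of ADAM17, 10.3%, is shared with IAH1 on the other strand, which was not called (adjusted p = 0.0711), and the library kit does not mark strand.

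The related sheddase ADAM10, which cuts Notch receptors and the amyloid precursor protein, was measured at 4731 and 4545 in shCtrl cells and 6101 and 5963 in shYEATS2 cells. These groups did not overlap and the replicates were close, yet the log2 fold change of 0.38 ± 0.09 missed the limit (adjusted p = 0.0139). ADAM10 was called higher under 5 of its 13 alternatives, among them total counts and exactTest. ADAM9, the ADAM gene with the highest level per length, had 8436 and 8508 in shCtrl cells and 8997 and 9694 in shYEATS2 cells, with an adjusted p of 0.241. ADAM15 overlapped between the groups, from 1715 to 1911 in shCtrl cells and from 1814 to 2303 in shYEATS2 cells. The 2 sheddases called higher were therefore not the ones with the highest counts.

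None of the ADAM genes without the zinc-binding motif was called. ADAM22, a receptor of LGI proteins at synapses, had 2035 and 2205 in shCtrl cells and 2771 and 3132 in shYEATS2 cells, with a log2 fold change of 0.48 ± 0.11 (adjusted p = 0.0114), the member nearest to the limit from outside. ADAM11 lay the other way, at 461 and 494 in shCtrl cells and 365 and 300 in shYEATS2 cells (log2 fold change -0.52 ± 0.15, adjusted p = 0.0257). ADAM23 overlapped, with 639 and 624 in shCtrl cells and 633 and 525 in shYEATS2 cells. Across all members with a coding transcript, log2 fold changes had a median of 0.56 for the 18 with the motif (4 called higher, 1 lower) and 0.54 for the 9 without it (2 called higher, both of them TIMP genes). However, 7 of the 18 and none of the 9 are listed through shYEATS2 libraries alone, and without those 7 the median with the motif was 0.24 (2 called higher and 1 lower of 11).

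ADAMTS20 was the only ADAMTS gene called. It encodes an enzyme that cuts the proteoglycan versican, and lies on chromosome 12 (chr12:43747669-43946006, minus strand, GRCh37). It had 46.3 and 65.1 scaled counts in shCtrl cells and 141 and 147 in shYEATS2 cells. The log2 fold change was 1.37 ± 0.25 (2.59-fold, adjusted p = 0.0055) with knockdown replicates close together, but the gene is one of those listed through shYEATS2 alone. Its call was lost without shCtrl replicate 1 (adjusted p = 0.0352) and without shYEATS2 replicate 2 (adjusted p = 0.0150), in a range from 2.1e-06 to 0.0352 over its alternatives. ADAMTS6, which acts on fibrillin microfibrils, pointed the other way, at 412 and 310 in shCtrl cells and 220 and 184 in shYEATS2 cells. Its log2 fold change of -0.84 ± 0.19 had an adjusted p of 0.0129 and was not called.

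The other 3 ADAMTS genes were not called either. ADAMTS16 was read at 131 in both shCtrl libraries and at 181 and 213 in shYEATS2 cells (adjusted p = 0.0375). ADAMTS13, the protease of von Willebrand factor, was a low transcript at 68.9 and 93.3 in shCtrl cells and 121 and 118 in shYEATS2 cells (adjusted p = 0.0927). ADAMTS3, which trims procollagens and the growth factor VEGF-C, overlapped between the groups at 532 and 488 against 530 and 670.

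The 3 ADAMTS-like genes did not reach the limit. ADAMTSL4, a fibrillin-binding matrix protein, had 345 and 488 in shCtrl cells and 659 and 799 in shYEATS2 cells, with a log2 fold change of 0.81 ± 0.19 (adjusted p = 0.0139). ADAMTSL5 had 569 and 587 against 785 and 946 (0.58 ± 0.13, adjusted p = 0.0115), and ADAMTSL3 had 211 and 203 against 333 and 304 (0.62 ± 0.15, adjusted p = 0.0149). In all 3 genes both knockdown libraries lay above both control libraries, and the unadjusted p was under 0.05, although edgeR called 0 of them at the limit.

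The 2 members that do not encode a family protein were not called. ADAM1A, a pseudogene in human, had 97.9 and 57.5 in shCtrl cells and 164 and 149 in shYEATS2 cells (adjusted p = 0.0251). All of its annotated exon bases are shared with MAPKAPK5 on the same strand, and MAPKAPK5 itself was called higher (log2 fold change 0.75, adjusted p = 0.0036), so the reads of ADAM1A are uncertain. MMP24-AS1, named MMP24OS in the annotation, overlaps 806 exon bases of MMP24 on the other strand. It had 1388 and 1574 in shCtrl cells and 1293 and 1290 in shYEATS2 cells (log2 fold change -0.20 ± 0.11, adjusted p = 0.161), while MMP24 had a positive value. As the kit does not mark strand, reads in the shared bases cannot be told apart.

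MMP14 carries in its 3′ UTR a word that goes with lower counts among all genes of these libraries. An earlier look at these data had picked out the words AAGTTCA and CAAGTTC, so their use here is a description. The length of the UTR, 9450 bases in MMP16 and 1719 in MMP14, was not taken into account. Among 11390 genes with an annotated 3′ UTR, 2179 (19.1%) held at least 1 of these words, and 20.2% of them were called lower, against 11.5% of the genes without. Of the 27 members with such a UTR, 3 (11.1%) held one: MMP14, ADAM23 and MMP16. Their log2 fold changes were -0.91, -0.13 and -0.11, and the median of the 24 members without a word was 0.58. Of these 24, 7 are listed through shYEATS2 libraries alone, and the median of the other 17 was 0.54. The sites of MMP14 and ADAM23 are shown with the word in capitals, on the strand of the transcript:
MMP14: gctcagtcagtCAAGTTCctcggagatct
ADAM23: taagtgatgatCAAGTTCccatttcacct
The MMP14 site begins at base 609 of a 3′ UTR of 1719 bases, in the last exon (window chr14:23315846-23315874, GRCh37). The ADAM23 site also lies in the last exon (window chr2:207485325-207485353, GRCh37). ADAM11 and ADAMTS6, which also lay lower in both knockdown libraries, hold neither word. The part of this word in the MMP14 result was not tested.

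Lists of genes around the family were read in the same fit. The listing rule bears on these lists too. The direction of their genes listed through shYEATS2 libraries alone was largely set by the listing, and genes low in both groups are left out. Of 126 genes on 6 lists, 83 were in the table, and 16 were called higher and 6 lower. Beside these counts, and those of each list below, stand 12.9% of all genes called higher and 12.5% called lower. The 14 tested activators and inhibitors of matrix proteases had 4 called higher and 2 lower, with a median log2 fold change of 0.37. RECK, a membrane-anchored inhibitor of MMP2 and MMP14, rose from 537 and 622 scaled counts to 1222 and 1426 (log2 fold change 1.19 ± 0.13, adjusted p = 0.0014). SERPINE2, an inhibitor of urokinase and thrombin, rose from 265 and 286 to 1348 and 1195 (log2 fold change 2.21 ± 0.12, adjusted p = 0.00079). PLAU, the urokinase whose product plasmin activates several MMPs, fell from 16879 and 16164 to 10021 and 10090 (log2 fold change -0.72 ± 0.09, adjusted p = 0.0019). PCSK7, a proprotein convertase, also rose (log2 fold change 0.81, adjusted p = 0.0023).

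The 15 partners of ADAM10 and ADAM17 had 3 genes called higher and none lower at this limit, beside 12.9% and 12.5% of all genes. At an unadjusted p under 0.05, 6 lay higher and 1 lower, beside 28.7% and 27.8% of all genes. With exactTest the lists together had 35 calls in either direction in place of 22. Among those called were NCSTN (log2 fold change 1.01, adjusted p = 0.0019) and APH1B (0.91, adjusted p = 0.0059), subunits of the gamma-secretase that cuts the membrane stubs left by ADAM shedding. RHBDF2 (iRhom2), which carries ADAM17 to the cell surface, had 1577 and 1650 in shCtrl cells and 1751 and 1789 in shYEATS2 cells (adjusted p = 0.262). Among the tetraspanins that bind ADAM10, TSPAN14 came closest to the limit with 842 and 860 against 1141 and 1293 (0.52 ± 0.11, adjusted p = 0.0102). TSPAN5, TSPAN10, TSPAN15, TSPAN17 and TSPAN33 had log2 fold changes between -0.17 and 0.89 and were not called.

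Of 20 shed membrane substrates of ADAM10 and ADAM17, 3 were called higher and 3 lower, beside 12.9% and 12.5% of all genes. ICAM1, an adhesion receptor for leukocytes, rose from 1476 and 1321 to 4451 and 8664 (log2 fold change 2.23 ± 0.28, adjusted p = 0.0020). IL6R, the interleukin 6 receptor, rose from 25.8 and 33.6 to 107 and 167 (2.20 ± 0.33, adjusted p = 0.0029). With 24 and 31 reads in shCtrl cells, IL6R is listed through shYEATS2 libraries alone, so its direction was largely set by the listing. TGFA, an epidermal growth factor receptor ligand released by ADAM17, fell from 1207 and 1666 to 652 and 582 (log2 fold change -1.22 ± 0.17, adjusted p = 0.0025). JAG1 and NOTCH1, a Notch ligand and a Notch receptor, were called in opposite directions (0.95 and -0.80 on the log2 scale). NRG1, a neuregulin shed by ADAM17 and ADAM19, was the other gene called lower (-0.70), and like NOTCH1 it was named after its value was seen.

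The remaining lists were smaller or moved less. Of 5 substrates of ADAMTS enzymes in the table, HSPG2 (perlecan, a basement membrane proteoglycan) was called higher, from 2766 and 2573 to 9343 and 14309 (log2 fold change 2.15 ± 0.19, adjusted p = 0.0010), and 4 were not called. Of 10 other secreted or membrane metallopeptidases and their partners, 4 were called higher and 1 lower, beside 12.9% and 12.5% of all genes. BMP1, the procollagen C-proteinase, rose (1.03, adjusted p = 0.0012), whereas PCOLCE, the protein that enhances its cleavage of procollagen, fell by 1.01 on the log2 scale (adjusted p = 0.0083). ECE1, the endothelin-converting enzyme, rose as well (0.85, adjusted p = 0.0013). PAPPA2, which cuts binding proteins of insulin-like growth factors, had 1 and 4 reads in shCtrl cells and 92 and 195 in shYEATS2 cells. The ratio was 49.5, with an exact 95% counting interval from 20.9 to 153. That interval holds counting error only and leaves out the spread between replicates. The fitted log2 fold change of PAPPA2 was 5.55 ± 0.92 (SE). PAPPA2 is likewise listed through shYEATS2 libraries alone. Among 19 AP-1, ETS and RUNX transcription factors, known regulators of MMP promoters, ATF3 was called higher (1.30, adjusted p = 0.0054) and none was called lower, with 5 higher and 3 lower at an unadjusted p under 0.05 (28.7% and 27.8% of all genes).

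**Figure D5:**
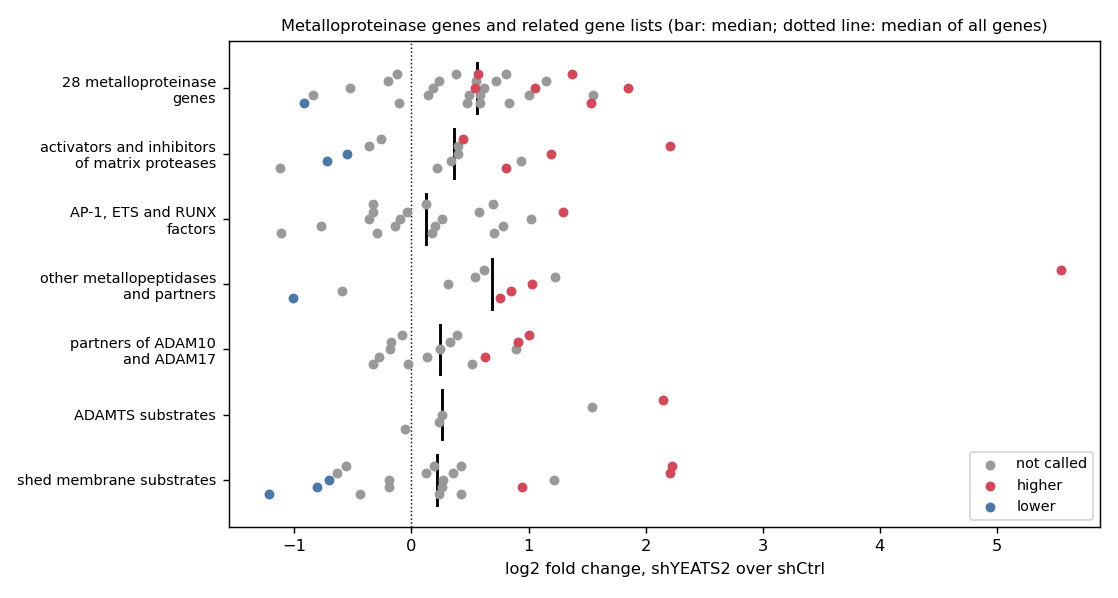
Log2 fold change of each tested gene in the metalloproteinase group and in the 6 related lists, with red points called higher and blue points lower at an FDR under 0.01, a black bar at each median and a dotted line at the median of all genes. The medians run from 0.13 for the AP-1, ETS and RUNX factors to 0.69 for the other metallopeptidases, beside 0.56 for the 28 metalloproteinase genes. The point at the far right is PAPPA2, with 1 and 4 reads in shCtrl cells. The listing rule bears on these medians, since genes listed through shYEATS2 libraries alone, such as PAPPA2, were selected for high counts there.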

How the data were processed

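The 4 RNA-seq libraries of the series were used, and its ChIP-seq samples were not. By the labels and methods, mRNA was prepared with a TruSeq kit that does not mark strand and reads were mapped to hg19. The methods name the RNA-Seq unified mapper, the submitters' processing notes name TopHat2 2.0.10 and HTSeq 0.6.1p1 (run with default parameters by the methods), and the annotation is not given in the sources used here. The deposited values are raw read counts per gene that the authors made with HTSeq; the genes listed have at least 101 reads in their highest library. The table also holds the authors' own comparison of the groups as a log2 fold change, a p-value and an FDR per gene, which were not used.

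Counts were fitted with edgeR 4.0.16 (R 4.3.3), with TMM scaling, glmQLFit and glmQLFTest over 12676 genes, and Benjamini-Hochberg adjustment; genes needed 10 reads in 2 libraries. Scaled counts are reads divided by the effective library size and multiplied by its mean. The scripts were tested on simulated data. Positions, transcript lengths, coding sequences and UTRs came from GENCODE 44 on GRCh37, and promoters from RefSeq on GRCh38.p14. Alternatives used DESeq2 1.42.0, limma 3.58.1 (prior count 1), exactTest, other scalings and filters, and each library left out. The length of all exons and the counts without genes listed through shYEATS2 alone were chosen after seeing the data.

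The members and gene lists were chosen with earlier results of these data known. Every member is named. From each list up to 4 called genes with the largest changes are named, with RECK, RHBDF2 and the tetraspanins whatever their result. A called gene of the partner list is not reported here. NOTCH1, NRG1 and the words in the 3′ UTR were named after their values were seen.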

Additional observations from a re-analysis of the deposited data

How the results depend on the processing

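With 2 libraries a group, p-values rest on a spread shared over genes. Among the 28 genes, counts called higher and lower were 11 higher with total counts, 16 and 3 with exactTest, 12 and 2 with DESeq2's test, and 17 and 3 at an FDR under 0.05. Leaving out each library gave 3 to 10 higher and 0 to 1 lower, with 3 higher and 0 lower without shCtrl replicate 1 and 10 higher without shYEATS2 replicate 1. DESeq2 size factors, upper quartile scaling, limma-trend and both filters stayed within 1.5 times the counts reported. Over all genes, 2596 and 2497 were called with exactTest, 3093 and 3011 at an FDR under 0.05, and 775 to 1971 higher and 850 to 2024 lower with a library left out. The related lists had 35 calls with exactTest, 43 at an FDR under 0.05 and 13 to 28 with a library left out. The log2 fold change turned sign for ADAM23 without shYEATS2 replicate 2 (-0.265 to 0.0041 over the libraries left out), for MMP1 without shYEATS2 replicate 1 (-0.094 to 1.14) and for MMP16 with total counts (0.014). The cause of these shifts was not tested. A fit without a library leaves an arm with 1 sample, which is assumed to vary like the others.

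With the replicate number as a block, 15 of the 28 genes were called higher and 2 lower, 38 calls fell on the related lists, and 2742 and 2715 genes were called in all. Same-numbered libraries deviated together (correlation 0.403), but there are 2 pairs and the labels name no shared batch, so the numbers were not taken as a pairing.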

Other observations

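Promoters of 17 of the 28 genes were found in the RefSeq table, each as 250 bases before and 50 after the start. The AP-1 word TGANTCA reads the same on both strands, and the TATA word TATAAA was read on the strand of the gene only. Each occurred in 0 of the 17, beside 4.07% and 3.02% of 9085 promoters of genes in the table. The GC-box word GGGCGG, on either strand, occurred in 15 of the 17 (88.2%), beside 71.7% of those 9085 promoters and 44.6% of all 27305 promoters of that length. The median GC content was 74.7% in the 17 promoters and 65.7% in the 9085. MMP2, TIMP2, MMP1 and MMP13 had no entry, so these counts leave out some of the genes with the largest changes.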
